A study of Gallus gallus with 6 samples.

Results

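Transcripts of the tumour necrosis factor (TNF) superfamily were followed in HD11 cells, a chicken macrophage-like line transformed by an avian myelocytomatosis virus. The genes were the 10 rows of the deposited tables whose symbol is TNFSF8, TNFSF10, TNFSF13B, TNFSF15, TNFRSF1A, TNFRSF1B, TNFRSF10B, CD40, FAS or LITAF. All 10 were found among the 14903 genes of the tables. Of them 4 encode ligands, 5 encode receptors, and LITAF encodes a protein of neither class. The study compared 3 mock libraries of wild type HD11 cells, left untreated, with 3 libraries of the same wild type line given 100 ng/mL recombinant chicken interferon beta (IFN-beta) for 3 h. No separate time was recorded for the mock cells, and every library was labelled with 1 batch and as an independent biological replicate of 1 cell line. RNA was sequenced as paired-end reads.

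Ligands of this superfamily are mostly trimers held in the cell membrane or shed from it, and their receptors gather into clusters when bound. Receptors with a cytoplasmic death domain, among them TNFRSF1A, FAS and TNFRSF10B, recruit adaptors such as TRADD and FADD and can lead either to caspase activation or to NF-kappaB. Receptors without that domain, among them TNFRSF1B and CD40, bind TRAF adaptors directly. Macrophages use the family to respond to and to send signals of inflammation, survival and death, and type I interferons such as IFN-beta are known in mammals to regulate several of its genes.

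The libraries held 15665594 to 15885227 counts each. Of 11 macrophage markers found, 9 had a mean of at least 1 TPM (a transcript level corrected for gene length and library depth), and MRC1 and LYZ were below it. The summed level of the 11 was 2323 to 2426 TPM in mock and 3104 to 3162 TPM in IFN-beta. The lists of T cell, B cell, erythroid, thrombocyte and fibroblast markers summed to 0.06 to 8.01 TPM in any library. The macrophage sum therefore differed between the groups, and its part in the results was not tested. In bulk RNA, fewer expressing cells and less RNA per cell cannot be told apart.

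Of the 10 genes, 9 had enough counts to be tested, of which 5 rose, 2 fell and 2 did not pass. A gene was called where its edgeR quasi-likelihood test had a Benjamini-Hochberg adjusted p under 0.05 over all genes tested. Over all 11091 genes tested, 24.3% rose and 22.4% fell, 46.7% in all. The CPM values of the groups did not overlap for 7 of the 9, higher in IFN-beta for 5 and lower for 2. Of all genes tested, 53.9% did not overlap, 27.6% higher and 26.3% lower. The members that rose were the ligand gene TNFSF15 and the receptor genes CD40, TNFRSF1A, TNFRSF10B and TNFRSF1B. Those that fell were the ligand gene TNFSF10 and the receptor gene FAS. The median log2 fold change was 0.46 over the 9 tested members and -0.001 over all genes tested. The members were chosen with earlier results of these data known, so these counts and medians are a description.

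**Figure D1:**
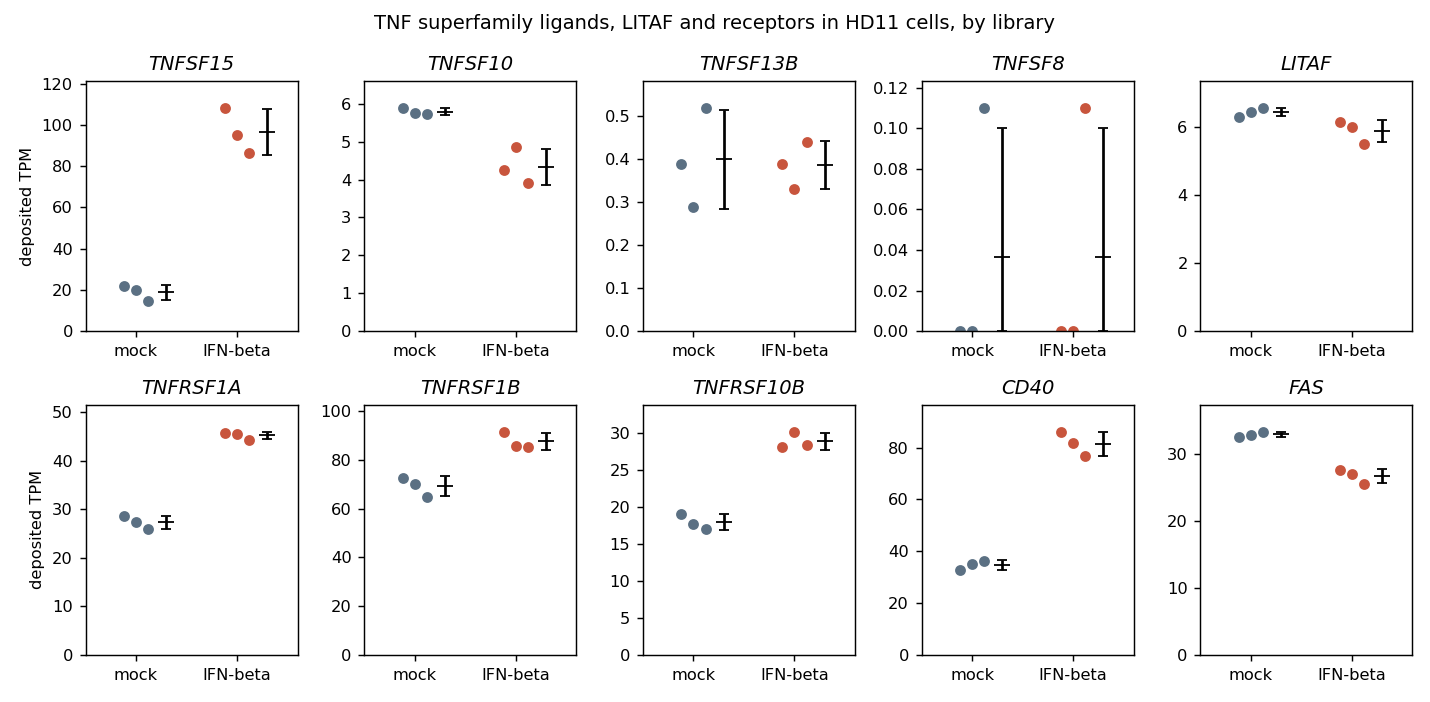
Deposited TPM of the 10 genes in each library (points) with the mean and SD of 3 libraries (black bars, cut at 0 for TNFSF8), on linear axes that start at 0 and differ between panels. The IFN-beta libraries stood above the mock libraries for TNFSF15 and 4 receptors and below them for TNFSF10, FAS and LITAF, while the groups overlapped for TNFSF13B and TNFSF8.

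Among the ligands, TNFSF15 changed most. It encodes TL1A, which in mammals signals through the death domain receptor TNFRSF25 and is bound by the decoy receptor TNFRSF6B. Its level was 21.91, 19.76 and 14.68 TPM in the mock libraries and 108.26, 94.89 and 86.28 TPM in the IFN-beta libraries. Every IFN-beta library was above every mock library, and the gap between the groups was several times the spread within either. In CPM, a level relative to the scaled library size and not corrected for gene length, it rose from 16.1 ± 2.89 to 89.5 ± 8.17 (SD, n = 3 per group). The log2 fold change was 2.48 with an approximate SE of 0.09, a 5.57-fold increase, and the edgeR adjusted p was 8.9e-15. This placed TNFSF15 above 99.2% of the genes tested.

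TNFSF10 encodes TRAIL, the ligand of TNFRSF10B and a trigger of apoptosis in sensitive cells. It stood at 5.89, 5.76 and 5.72 TPM in mock and at 4.25, 4.85 and 3.92 TPM in IFN-beta. The groups did not overlap, and the IFN-beta libraries were the more scattered. TNFSF10 fell from 12.2 ± 0.207 to 9.91 ± 1.06 CPM, which was 1.23-fold lower (log2 fold change -0.30, SE 0.10, edgeR adjusted p 0.016). The call rested on the test and the libraries used. The adjusted p was 0.0649 by DESeq2, 0.0546 without IFN-beta replicate 1 and 0.0842 without IFN-beta replicate 3 in edgeR, and 0.109 in the authors' deposited table.

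TNFSF13B encodes BAFF, a survival factor for B cells that macrophages and dendritic cells can secrete. Its counts were low, with 16, 12 and 22 reads in mock and 16, 14 and 19 reads in IFN-beta. The groups overlapped at 0.40 ± 0.115 and 0.387 ± 0.0551 TPM (SD, n = 3), and the log2 fold change of 0.05 (SE 0.29) did not pass, with an edgeR adjusted p of 0.906. The exact binomial interval of its fold at 95%, 0.684 to 1.57, covers counting error only and leaves a change of either sign within reach at this depth. TNFSF8 encodes the CD30 ligand of activated lymphoid cells. It had 1 read in mock replicate 3 and 1 read in IFN-beta replicate 3 and none in the other 4 libraries, so the filter on low counts left it out and no change could be measured. Both transcripts were near the limit of detection in these macrophage-like cells.

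LITAF was named for its induction by lipopolysaccharide and was first described in mammals as a factor for TNF transcription. The protein is known there to sit on late endosomes and lysosomes, where it takes part in membrane sorting. The reference table of the chicken genome lists TNF-alpha as a synonym of this gene, but the row is LITAF and not the cytokine. The symbol TNF was searched for and matched no row of the deposited tables, so the cytokine could not be followed. LITAF had 62, 68 and 78 reads in mock and 66, 70 and 62 reads in IFN-beta. The groups overlapped at 4.28 ± 0.499 and 4.30 ± 0.253 CPM, and the log2 fold change of 0.01 (SE 0.14, edgeR adjusted p 0.968) did not pass. In TPM the groups did not overlap, at 6.31, 6.46 and 6.56 in mock and 6.14, 6 and 5.51 in IFN-beta. With limma on log2(TPM + 1) LITAF did not pass, and the median of all genes lay at -0.10 on that scale.

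Of the receptors, CD40 changed most. On macrophages and B cells it receives the CD40 ligand of helper T cells and signals through TRAF adaptors. Its level was 32.75, 35.13 and 36.15 TPM in mock and 85.97, 81.89 and 76.73 TPM in IFN-beta. No IFN-beta library came near the mock range. CD40 rose from 15.3 ± 1.10 to 38.8 ± 1.20 CPM, a 2.54-fold increase (log2 fold change 1.34, SE 0.07, edgeR adjusted p 2.9e-12), and 97.8% of the genes tested had a lower log2 fold change.

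Both receptors of TNF rose. TNFRSF1A, the widely expressed receptor with a death domain, stood at 28.71, 27.32 and 26.00 TPM in mock and 45.81, 45.59 and 44.34 TPM in IFN-beta. TNFRSF1B, the receptor without one and typical of immune cells, stood at 72.62, 70.34 and 64.66 TPM in mock and 91.68, 85.94 and 85.24 TPM in IFN-beta. The groups did not overlap for either gene. TNFRSF1A rose 1.79-fold, from 50.2 ± 1.72 to 89.95 ± 0.926 CPM (log2 fold change 0.84, SE 0.05, edgeR adjusted p 1.3e-11). TNFRSF1B rose 1.37-fold, from 139 ± 6.03 to 190.3 ± 3.97 CPM (0.46, SE 0.04, edgeR adjusted p 1.1e-08), and against a fold of 1.5 (glmTreat) the adjusted p was 1, so it missed that stricter threshold.

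The balance between the TNF receptors differed between the groups. TNFRSF1B stood at 2.53, 2.58 and 2.49 times the TPM of TNFRSF1A in the mock libraries and at 2.00, 1.89 and 1.92 times in the IFN-beta libraries. TNFRSF1B thus remained the more abundant transcript per length in all 6 libraries, by a smaller margin in each IFN-beta library than in any mock library. The mean log2 ratio was 1.34 ± 0.025 in mock and 0.953 ± 0.044 in IFN-beta (SD, n = 3), a difference of -0.39. The two-sided exact permutation test gave p = 0.1, the smallest value that 3 against 3 libraries allow.

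TNFRSF10B is the death domain receptor of TRAIL and in chickens is also known as TVB, the locus of cell entry by several subgroups of avian leukosis virus. It stood at 19.09, 17.62 and 16.98 TPM in mock and 28.04, 30.16 and 28.31 TPM in IFN-beta, with no overlap. TNFRSF10B rose 1.77-fold, from 24.3 ± 0.848 to 42.9 ± 1.32 CPM (log2 fold change 0.82, SE 0.06, edgeR adjusted p 4.5e-10). The receptor of TRAIL was thus higher in the libraries in which the transcript of TRAIL was lower.

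FAS, the death domain receptor of the FAS ligand, was the one receptor of the 5 that fell. It was listed at 32.53, 32.91 and 33.37 TPM in mock and 27.65, 27.02 and 25.54 TPM in IFN-beta. The groups did not overlap and the difference was small. FAS fell from 33.8 ± 0.867 to 29.6 ± 0.422 CPM, 1.14-fold lower (log2 fold change -0.19, SE 0.06, edgeR adjusted p 0.00888). FAS was called lower in 16 of 17 alternatives, all but glmTreat against a 1.5-fold change, and the adjusted p was 0.045 by DESeq2. In the authors' deposited table, for which DESeq2 is also named, it was 0.0749 and missed 0.05. The reason for that difference was not tested. FAS overlaps ACTA2 by gene start and end in the reference assembly GRCg7b, which is not the build named by the authors, GRCg6a. With no strand setting given, whether the 2 genes share reads was not tested. ACTA2 had 498 reads in mock and 540 in IFN-beta and did not pass (log2 fold change 0.20, edgeR adjusted p 0.0928).

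**Figure D2:**
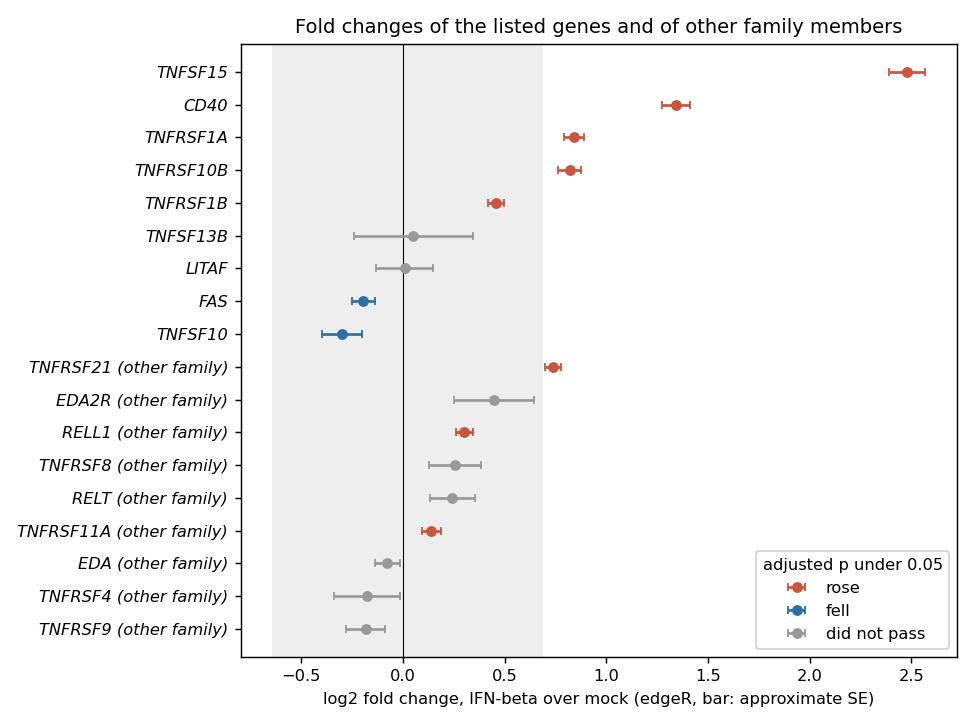
Log2 fold change of IFN-beta over mock for the 9 tested members and, below them, 9 other tested genes of the superfamily. Points are edgeR estimates, bars the approximate SE, colours the call, and the grey band holds the central part of all genes tested, from -0.64 (5th percentile) to 0.69 (95th percentile). TNFSF15 and CD40 stood furthest to the right, at 2.48 and 1.34.

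Levels per length placed the genes in a different order in the 2 groups. In mock, TNFRSF1B was highest at 69.2 ± 4.10 TPM, followed by CD40 at 34.7 ± 1.75 and FAS at 32.9 ± 0.421 TPM, which overlapped. TNFRSF1A came next at 27.3 ± 1.36 TPM, and then TNFSF15 at 18.8 ± 3.71 and TNFRSF10B at 17.9 ± 1.08 TPM, which also overlapped. In IFN-beta, TNFSF15 at 96.5 ± 11.1, TNFRSF1B at 87.6 ± 3.53 and CD40 at 81.5 ± 4.63 TPM formed a leading group in which each overlapped the next. TNFRSF1A (45.3 ± 0.793 TPM), TNFRSF10B (28.8 ± 1.15 TPM) and FAS (26.7 ± 1.08 TPM) followed without overlap. By mean TPM, TNFSF15 led in IFN-beta and ranked below 4 receptors in mock, while FAS was lowest of the 5 receptors in IFN-beta and level with CD40 in mock. LITAF, TNFSF10, TNFSF13B and TNFSF8 kept the last 4 places in both groups.

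The sum of the 5 receptor transcripts was 182 ± 4.41 TPM in mock and 269.97 ± 9.51 TPM in IFN-beta. CD40 made up 19.1 ± 1.39% of it in mock and 30.2 ± 0.655% in IFN-beta, and the share of FAS was 18.1 ± 0.672% and 9.90 ± 0.0841%. TNFRSF1B held 38.0 ± 1.35% and 32.5 ± 0.604%. The share of CD40 was higher and those of FAS and TNFRSF1B were lower in each IFN-beta library than in any mock library. Among the 3 listed death domain receptors, a set without TNFRSF21, FAS was the most abundant in mock, with 42.2 ± 1.61% of their summed TPM, against 35.0 ± 0.851% for TNFRSF1A and 22.9 ± 0.792% for TNFRSF10B. In IFN-beta TNFRSF1A led with 44.9 ± 0.453%, and FAS held 26.5 ± 0.645%, below the 28.6 ± 0.884% of TNFRSF10B. These shares describe transcripts and were not tested apart from the genes.

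**Figure D3:**
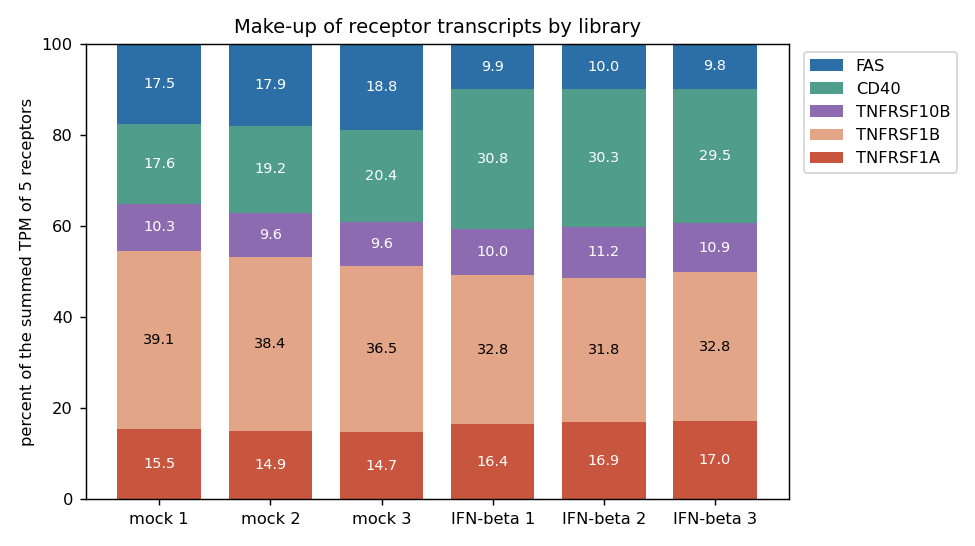
Share of each receptor gene in the summed TPM of the 5 receptors, in percent, 1 stacked bar per library. The CD40 band widens from 17.6 to 20.4% in the mock libraries to 29.5 to 30.8% in the IFN-beta libraries, while the FAS band narrows from 17.5 to 18.8% to 9.82 to 9.99%.

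Partners of the ligands, by the pairs known in mammals, were mostly near the limit of detection in these cells. TNFRSF25, the receptor of TL1A, had 15 reads in mock and 11 in IFN-beta over 3 libraries each, and the decoy gene TNFRSF6B had 18 and 29 reads. The BAFF receptor genes TNFRSF13B and TNFRSF13C had 14 and 14 reads and 4 and 2 reads. The filter on low counts left out these 4 genes. TNFRSF8, the receptor of the TNFSF8 ligand, was measurable at 5.86 ± 0.344 CPM in mock and 7.00 ± 1.19 CPM in IFN-beta and did not pass (log2 fold change 0.26, SE 0.13, edgeR adjusted p 0.113). TNFSF10 with TNFRSF10B was the only pair of these in which both genes were tested, so no other pair could have both called. Both were called in edgeR, and the call of TNFSF10 was lost by DESeq2 (adjusted p 0.0649).

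Other genes of the superfamily were taken from a list of 39 symbols, of which 20 were found and 9 tested. TNF and CD40LG, the ligand gene of CD40, were among the symbols that matched no row. Of the 9 tested, 3 rose, none fell and 6 did not pass in edgeR, beside 24.3% that rose and 22.4% that fell of all genes tested. By DESeq2 3 rose and 0 fell, beside 2311 that rose and 2016 that fell of all 11091 genes tested. Limma on log2(TPM + 1) called 3 lower, beside 3605 lower of all 10156 genes it tested. TNFRSF21, a receptor with a death domain also called DR6, stood at 81.40, 86.52 and 83.67 TPM in mock and 131.98, 131.69 and 121.26 TPM in IFN-beta. It was above TNFRSF1B per length in every library and rose 1.67-fold, from 168 ± 5.95 to 279 ± 9.33 CPM (log2 fold change 0.74, SE 0.04, edgeR adjusted p 4.5e-12). RELL1, a relative of the receptor RELT, rose 1.23-fold (edgeR adjusted p 9.5e-06). TNFRSF11A, the receptor RANK of osteoclast precursors and other myeloid cells, was 1.10-fold higher (edgeR adjusted p 0.02). In edgeR it did not pass under library size alone (adjusted p 0.422) or with upper quartile factors (0.161). Nor did it pass there without mock replicate 3 (0.0714) or without IFN-beta replicate 1 (0.0711) or 2 (0.072). It also missed the call by glmTreat and by limma under each of its 3 settings (limma adjusted p 0.797 to 0.834). EDA, the ligand gene of ectodysplasin, was the one other ligand tested, at 28.8 ± 0.251 CPM in mock and 27.3 ± 1.09 CPM in IFN-beta, and did not pass (-0.08, edgeR adjusted p 0.321). Under library size alone, where the median of all genes was -0.09, it was called lower (-0.17, edgeR adjusted p 0.025). Limma also called EDA lower under each of its 3 settings (adjusted p 0.00923 to 0.0121), where that median was -0.11 to -0.05.

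Beside these, a pair of ligand genes with few reads was singled out after the values were seen. FASLG, which encodes the ligand of FAS, had 1, 1 and 2 reads in mock and 7, 8 and 5 reads in IFN-beta. TNFSF4, which encodes the OX40 ligand, had 0, 0 and 1 read in mock and 5, 6 and 4 reads in IFN-beta. Both had more reads in every IFN-beta library, and the filter on low counts left out both. The ratio of IFN-beta to mock counts, each relative to the scaled library sizes, was 5.29 for FASLG, with an exact binomial interval at 95% of 1.77 to 21.3, and 15.9 for TNFSF4, with an interval of 2.44 to 667.5, which cover counting error only. With no filter, where 18.4% of 14892 genes rose, the edgeR adjusted p was 0.00963 for FASLG and 0.00701 for TNFSF4, against 0.0712 and 0.0368 in the authors' deposited table. The genes overlap by start and end in the reference assembly GRCg7b, and whether the counting divided reads between them was not tested.

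Adaptors, kinases and ubiquitin enzymes that act at the receptors formed a list of 42 symbols, of which 35 were found and 34 tested. Of the 34, 18 rose (52.9%), 2 fell (5.88%) and 14 did not pass, beside 24.3% that rose and 22.4% that fell of all genes tested. The median log2 fold change was 0.16 against -0.001 over all genes. The list was chosen with earlier results of these data known, so these values describe it and do not test it. Under library size alone 12 rose and 6 fell, with a median of 0.07, beside 1734 and 4008 of all 11091 genes tested (median -0.09). By limma on log2(TPM + 1), 11 were higher and 6 lower among 32 (median 0.04). That setting called 1301 higher and 3605 lower of all 10156 genes it tested (median -0.10). RIPK3, the kinase that starts necroptosis, stood at 20.59, 21.03 and 22.16 TPM in mock and 115.99, 117.66 and 118.32 TPM in IFN-beta. In CPM it rose from 29.99 ± 1.71 to 179 ± 5.52, 5.96-fold by edgeR (adjusted p 3.0e-19). BIRC2, the ubiquitin ligase cIAP1 that holds the TNF receptor complex in its survival mode, rose 5.45-fold from 75.03 ± 1.84 to 409 ± 15.1 CPM (adjusted p 2.85e-20 in edgeR).

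TNFAIP3, the enzyme A20 that ends TNF receptor signalling, rose 3.00-fold, from 17.0 ± 0.639 to 51.1 ± 0.942 CPM, and MAP3K8, a kinase that links the receptors to ERK, rose 2.32-fold, from 34.5 ± 1.69 to 80.3 ± 1.64 CPM. Their edgeR adjusted p were 1.4e-14 and 1.7e-13. The 2 genes that fell were FADD, the adaptor of FAS and TNFRSF10B, at 142 ± 2.96 and 129.6 ± 3.17 CPM (log2 fold change -0.13, edgeR adjusted p 0.00998), and TAB1, a partner of the kinase TAK1, at 19.5 ± 0.942 and 16.01 ± 0.484 CPM (-0.29, adjusted p 0.0053). CASP8, the protease that FADD recruits, rose from 64.5 ± 1.76 to 102 ± 5.67 CPM (0.66, edgeR adjusted p 1.2e-09). The call of FADD was lost without IFN-beta replicate 2 (edgeR adjusted p 0.0713). TRADD, the adaptor of TNFRSF1A, did not pass, at 62.2 ± 2.00 and 61.2 ± 2.44 CPM (-0.02, edgeR adjusted p 0.754). FADD, TAB1, CASP8 and TRADD were named after their values were seen.

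**Figure D4:**
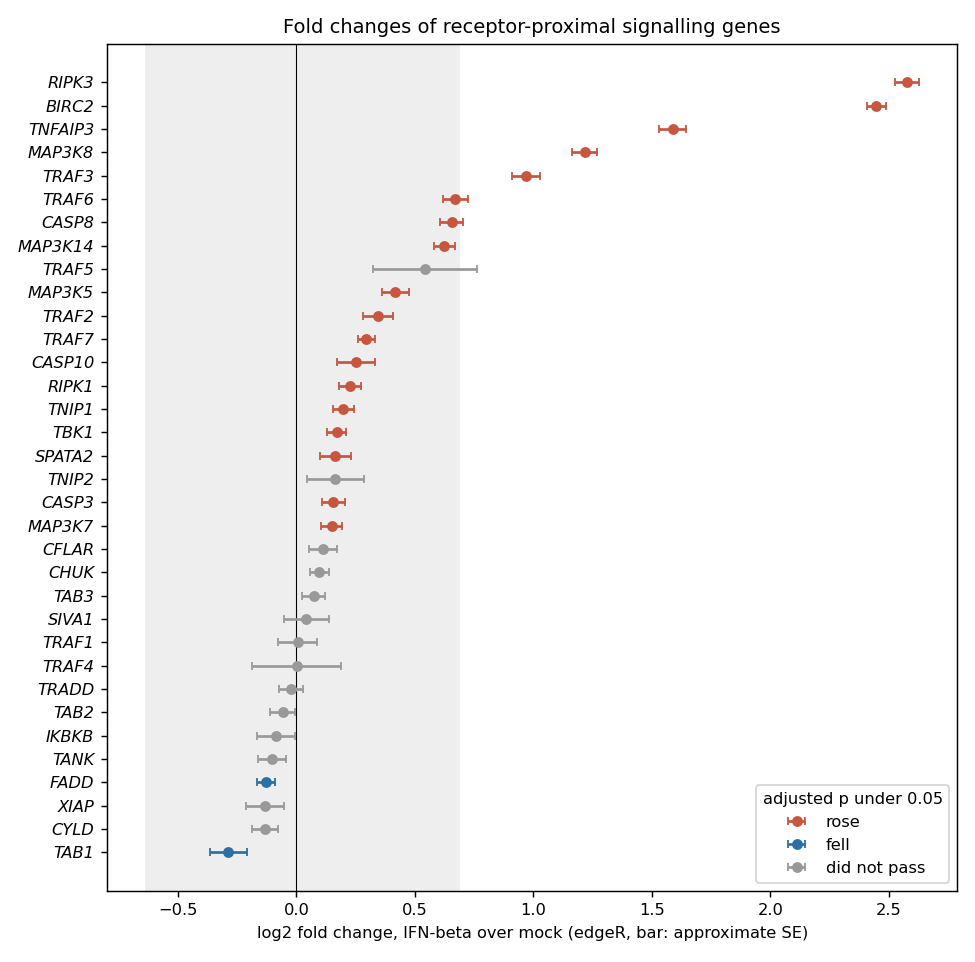
Log2 fold change of IFN-beta over mock for the 34 tested adaptors, kinases, caspases and ubiquitin enzymes of the receptors, ordered by size. Points are edgeR estimates, bars the approximate SE, colours the call, and the grey band runs from the 5th to the 95th percentile of all genes tested; RIPK3 at 2.58 and BIRC2 at 2.45 lie furthest to the right and TAB1 at -0.29 furthest to the left.

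Among 11 genes that cut or release ligands and receptors of the family, all tested, 3 rose, 3 fell and 5 did not pass, with a median log2 fold change of -0.06. These shares, 27.3% each way, were near the 24.3% that rose and 22.4% that fell among all genes tested. FURIN, a protease that matures ADAM17 and several ligands, rose 2.02-fold from 31.9 ± 2.02 to 64.4 ± 4.57 CPM (edgeR adjusted p 6.1e-11). RHBDF2, the carrier that brings the TNF-shedding protease ADAM17 to the surface, fell from 106 ± 3.32 to 78.98 ± 2.10 CPM (log2 fold change -0.42, edgeR adjusted p 1.55e-07). Its relative RHBDF1 fell from 10.7 ± 0.933 to 7.58 ± 0.959 CPM (-0.50, edgeR adjusted p 0.00109). ADAM17 itself, named after its values were seen, did not pass. It stood at 119.6 ± 6.49 CPM in mock and 114.4 ± 5.20 CPM in IFN-beta, with overlap (-0.06, edgeR adjusted p 0.275). ERAP1, an aminopeptidase reported in humans to promote shedding of TNFRSF1A, rose 1.23-fold (edgeR adjusted p 8.9e-06).

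Of 7 genes whose human products bind LITAF, 2 rose, 2 fell and 3 did not pass, with a median log2 fold change of 0.04. The shares of 28.6% each way were again near those of all genes tested, 24.3% and 22.4%. ITCH, a ubiquitin ligase, rose from 64.8 ± 4.55 to 85.8 ± 2.22 CPM (0.41, edgeR adjusted p 2.7e-06), and TSG101, a subunit of the endosomal sorting machinery, rose from 86.7 ± 3.21 to 104 ± 4.24 CPM (0.26, edgeR adjusted p 0.000124). HGS, another sorting subunit, fell from 155 ± 7.13 to 139 ± 6.47 CPM (-0.16, edgeR adjusted p 0.00496). NEDD4, a relative of ITCH, was at -0.16 with an edgeR adjusted p of 0.0494. It did not pass by DESeq2 (0.123) or without mock replicate 1 (0.298), mock replicate 2 (0.0714) or IFN-beta replicate 1, 2 or 3 (0.0538, 0.157 and 0.114).

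Genes with the most similar pattern were sought for the members with the highest and the lowest log2 fold change, by the smallest root mean square difference of log2 CPM over 6 libraries after the mean of the mock libraries was subtracted. Among 11090 other genes, those nearest to TNFSF15 were PTCHD3L (difference 0.110), the row listed as gene-HPS5 (0.116) and USP35 (0.124). Their log2 fold changes were 2.54, 2.57 and 2.56. Nearest to TNFSF10 were MLYCD (0.0331), ARHGAP27 (0.0338) and KLF9 (0.0456), with log2 fold changes of -0.31, -0.30 and -0.30. With 2 conditions the measure is set mainly by the size of the change.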

How the data were processed

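RNA sequencing of 3 mock and 3 IFN-beta libraries was used, grouped by their titles. The authors deposited unscaled expected counts per gene, not whole for 2322 genes, and TPM for the same 14903 genes. The authors' deposited table of their comparison holds, by its header, a log2 fold change, a p-value and a q-value per gene. The submitters' processing notes name the build GRCg6a and DESeq2. For the aligner, the counter and the strand setting, nothing is given in the sources used here. No genome or sequence was used, so the promoter motifs planned were not analysed here. A RefSeq gene table of another assembly, GRCg7b, served for names, neighbours and overlaps.

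Rounded counts were fitted in edgeR 4.0.16 (R 4.3.3) with filterByExpr, which kept 11091 genes, TMM factors (mock 1.03 to 1.04, IFN-beta 0.963 to 0.973), and glmQLFit with group alone, followed by Benjamini-Hochberg adjustment. The biological coefficient of variation was 3.56%. Each SE was approximated by dividing the log2 fold change by the square root of its F statistic. CPM are scaled to the effective library size. The fit was also run on simulated counts with few changed genes and the same spread for all genes, unlike these data. No result given here rests on that run. Alternatives used DESeq2 1.42.0, limma 3.58.1 on log2(TPM + 1) or log2(TPM + 0.1), other scalings and filters, glmTreat, a replicate block and leaving out each library.

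The members and lists were chosen with earlier results of these data known. Genes named by rule were the 10 members and, per list, up to 4 called genes with the smallest adjusted p, or the 2 highest where none was called. Other genes were named by likeness of pattern, as cell type markers, as known partners or as chromosome neighbours. FASLG, TNFSF4, ADAM17, FADD, TAB1, CASP8 and TRADD were named after their values were seen. Of 151 list entries 113 were found by symbol and 38 were not matched. Libraries of 1 group were further apart than counting noise gives (chi-square over its degrees of freedom 1.67 to 4.48), and p-values measure the spread between these libraries only.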

Additional observations from a re-analysis of the deposited data

How the results depend on the processing

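TNFSF15, CD40, TNFRSF1A and TNFRSF10B were called higher under all 17 alternatives, and TNFRSF1B was called higher and FAS lower under all but glmTreat against a 1.5-fold change. TNFSF10 kept its direction and passed in 13 of 17. LITAF passed in none of 17 and TNFSF13B in none of the 15 that tested it. Members that fell numbered 1 by DESeq2, 0 by glmTreat and 1 to 2 on leaving out a library. Over all genes tested, 2697 rose and 2480 fell. Upper quartile factors gave 2020 and 3356, library size alone 1734 and 4008, and glmTreat 416 and 246, each of 11091. Of 10156 genes, limma gave 1301 higher and 3605 lower on log2(TPM + 1), and 1272 and 3452 on log2(TPM + 0.1). Without a filter limma gave 1363 higher and 3582 lower of 14897. The share of calls that rose was 52.1%, against 37.6% with upper quartile factors, 30.2% under library size alone and 26.5 to 27.6% by limma. Library size alone and TPM place the median of all genes at -0.09 and -0.11 to -0.05.

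By glmTreat, 1 of the other ligands and receptors, 5 receptor-proximal genes, 1 shedding gene and 0 LITAF partners rose, and 0 of the last 3 lists fell. Without a filter, 5 other ligands and receptors rose in edgeR and 5 by limma. Of these genes, 1 fell with upper quartile factors, 2 under library size alone and 3 by limma under each of its 3 settings. Over all genes, the same settings gave 3356, 4008 and 3452 to 3605 that fell. Of the receptor-proximal genes, 11 rose on log2(TPM + 1) and 11 on log2(TPM + 0.1). Those that fell were 4 with upper quartile factors, 6 under library size alone, 6 on log2(TPM + 1) and 1 to 4 on leaving out a library (1 without IFN-beta replicate 2, 4 without mock replicate 3). Of the shedding genes, 5 fell on log2(TPM + 1), and 3 to 5 on leaving out a library (5 without mock replicate 3). Of the LITAF partners, 1 fell by DESeq2, 1 without a filter in edgeR and 1 to 2 on leaving out a library. Under library size alone 3 of them fell, and by limma without a filter also 3. The difference in the log2 ratio of TNFRSF1B to TNFRSF1A was -0.41 to -0.37 in all alternatives. The causes of these changes were not tested beyond what each setting alters.

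No source used here states that replicate numbers pair the libraries. Deviations from the group means of same-numbered libraries correlated at 0.0675 to 0.0831 across genes, and those of differently numbered libraries at -0.0602 to -0.0142. Each library correlated best with its own number, a weak hint of pairing from the data and not from the design. Deviations within a group cancel, so these correlations are not independent, and whether the libraries are paired was not tested. With the replicate block 3077 genes rose and 2792 fell, 5 members rose and 2 fell, and the exact paired test of the receptor ratio gave p = 0.25, the smallest that 3 pairs allow. Depth limited TNFSF8 and TNFSF13B, with 2 and 99 reads in all.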

Other observations

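Neighbours of the members on the chromosome were taken from the order of protein-coding genes in the GRCg7b table. Some moved as their member did and others did not, and 46.7% of all genes tested were called. NCEH1, beside TNFSF10, fell (log2 fold change -0.65, edgeR adjusted p 3.5e-09), and METTL16, beside TNFRSF1A, rose (0.16, edgeR adjusted p 0.0159), while CTC1, on the other side of TNFRSF1A, fell (-0.18, edgeR adjusted p 0.0361) and CHMP7, beside TNFRSF10B, fell (-0.15, edgeR adjusted p 0.0136). TNFSF15 and TNFSF8 lie next to each other, and the first rose 5.57-fold while the second had 1 read in each group. TMEM268, on the other side of TNFSF15, did not pass (log2 fold change -0.05, edgeR adjusted p 0.433), and TNC, on the other side of TNFSF8, fell (-0.61, edgeR adjusted p 0.0025). FAS, which fell, lies next to CH25H, the cholesterol hydroxylase gene, which rose from 164 to 1381 reads (3.15, edgeR adjusted p 6.4e-16). USP42, beside LITAF, rose (0.59, edgeR adjusted p 2.6e-07), while LITAF itself did not pass. TNFRSF1B lies next to TNFRSF8, which did not pass. VPS13D beside TNFRSF1B, RHOBTB2 beside TNFRSF10B, SNN beside LITAF and ABHD13 beside TNFSF13B did not pass either.

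Counts and TPM of LITAF did not move in step across libraries. After the typical gene of each library was set to 1, its counts per TPM were 0.920, 0.979 and 1.07 in mock and 0.988, 1.05 and 0.997 in IFN-beta. That spread was wider than in 98.8% of 8343 genes with a mean of at least 5 TPM. For TNFRSF1A the same quantity stayed between 0.999 and 1.00. The LITAF row overlaps a non-coding gene in the reference assembly. Which transcripts the counting assigned to it was not tested.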
